A study of Homo sapiens with 16 samples.

Results

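The genes described here are the 37 genes of the human mitochondrial genome, taken as every gene that the deposited tables place on chromosome MT, out of 58735 listed genes. They comprise 13 protein genes (mRNAs), 2 ribosomal RNA (rRNA) genes and 22 transfer RNA (tRNA) genes. RNA was sequenced after poly-A enrichment from BxPC3 and PANC-1, established human cell lines of pancreatic ductal adenocarcinoma. Controls without treatment were compared in each line with cells given gemcitabine, a deoxycytidine analogue that interferes with DNA synthesis, and each of the 4 groups held 4 libraries. The labels name no dose, duration, genotype or transgene, and no agent other than gemcitabine. Whether the libraries of a group stem from cultures grown apart is not said. The p-values therefore set group differences only against the scatter among these libraries, and that scatter may be technical.

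The mitochondrial genome is a small circle that is copied and transcribed by enzymes of its own, all encoded in the nucleus. Both of its strands are transcribed as long precursors, and the tRNAs that lie between the mRNAs and rRNAs are cut out, which releases the RNAs on either side. Most of the mRNAs then receive a poly-A tail, and they encode core subunits of complexes I, III, IV and V of oxidative phosphorylation, the chain of enzymes that makes ATP from respiration. The rRNAs carry short A tails and build the mitochondrial ribosome, so both a change in amount and a change in tail can alter how much of them a poly-A library holds. These possibilities cannot be told apart here, nor can RNA per cell from the number of mitochondria per cell.

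The tables list 28 of the genes on the plus strand and 9 on the minus strand, namely MT-ND6 and 8 tRNA genes. Whether the authors counted reads by strand is not given in the sources used here. Reads of the minus-strand genes can therefore include RNA of the opposite strand. Neighbouring gene models also overlap, most of all MT-ATP8 with MT-ATP6, by 46 bases, and MT-ND4L with MT-ND4, by 7 bases. Each of these pairs is carried on a common mRNA, so the split of reads within a pair is uncertain. The overlaps are shown 5′ to 3′ on the plus strand (GENCODE 29 transcripts, GRCh38), with the start codon of the downstream frame and the stop codon of the upstream frame in capitals.
MT-ATP8 and MT-ATP6, MT:8521-8578: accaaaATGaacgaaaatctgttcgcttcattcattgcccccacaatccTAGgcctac
MT-ND4L and MT-ND4, MT:10748-10778: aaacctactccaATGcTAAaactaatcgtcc

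In 6 of the 13 protein genes (MT-ND1, MT-ND2, MT-CO3, MT-ND3, MT-ND4 and MT-CYB) the gene model ends before a full stop codon, which the poly-A tail completes in the RNA. For the 6 protein genes that the results below turn on, the last bases of the gene model are shown 5′ to 3′ on the coding strand, with the bases of the stop codon in capitals. MT-ND6, the only protein gene on the minus strand, ends in a full AGG codon.
MT-ND2, MT:5494-5511: ttatactaataatcttaT
MT-ND3, MT:10387-10404: gattagactgaaccgaaT
MT-ND4L, MT:10749-10766: aacctactccaatgcTAA
MT-ND4, MT:12120-12137: ttaccgggttttcctctT
MT-ND6, MT:14149-14166, minus strand: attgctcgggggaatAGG
MT-CYB, MT:15870-15887: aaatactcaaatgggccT

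The 16 libraries held 22152034 to 37777222 reads in listed genes, recovered from the deposited FPKM values (fragments per kilobase of gene model, scaled to library size). A level of 3 reads in a gene model of 1 kb corresponds to 0.0803 to 0.138 FPKM. Summed FPKM of the ductal epithelial markers KRT7, KRT8, KRT18, KRT19, EPCAM and CDH1 was 2826 to 3297 in BxPC3 controls and 2672 to 3101 with gemcitabine. In PANC-1 it was 337 to 369 in controls and 551 to 758 with gemcitabine, without overlap, and KRT7 and CDH1 averaged 1.17 or less in either group. Summed markers of leukocytes, fibroblasts and endothelium lay between 0 and 12.5 FPKM in every library. The endothelial sum was 1.38 to 1.61 in BxPC3 controls and 5.59 to 6.29 with gemcitabine, through CDH5, which averaged 0.603 and 5.76 FPKM. PECAM1 and VWF went the other way there, from means of 0.756 to 0.132 FPKM and of 0.151 to 0.112 FPKM. The fibroblast sum in BxPC3 (1.74 to 2.12, then 2.59 to 2.87), mostly COL1A1, also separated the groups. So did the leukocyte sum in PANC-1 (0.963 to 1.27, then 2.31 to 3.95), mostly CD14. The endothelial sum in PANC-1 separated them at very low levels (0 to 0.0129, then 0.034 to 0.0821). The part of these markers in the results was not tested. SMAD4 was listed at 0 in all BxPC3 libraries, a line known to lack it, and averaged 3.84 FPKM in PANC-1 controls. PANC-1 gemcitabine replicate 1 stood apart from the other 3 libraries of its group along GC content. Its log2 level minus their mean had a median of -0.42 among tested genes in the lowest quartile of GC content and 0.45 among those in the highest quartile. All 13 mitochondrial mRNAs lay below the other 3 libraries' mean there, at -0.59 to -0.06 with a median of -0.26, beside -0.23 for 4109 nuclear genes in the same range of GC content. MT-RNR1 and MT-RNR2, also within that range, lay further below, at -0.46 and -0.56. Tests in PANC-1 are therefore given with and without this library.

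Each line was tested alone with limma on log2(FPKM + 1) over all genes that reached 1 FPKM in 4 or more libraries, and p-values were adjusted by the method of Benjamini and Hochberg, with 0.05 as the threshold. All 13 mRNAs and both rRNAs passed this filter in both lines, as did 13 of the 22 tRNA genes in BxPC3 and 19 in PANC-1. No member passed only through libraries of a single group. In BxPC3, 14 of 28 tested members passed the test, 4 higher and 10 lower with gemcitabine, beside a background of 73.4% of all genes tested. With values scaled to TPM the split was 6 higher and 9 lower, and the split of all genes under that scaling is not given here. In PANC-1, 16 of 34 passed, 4 higher and 12 lower, beside a background of 44.8%. With PANC-1 gemcitabine replicate 1 left out, 23 of 34 passed, 11 higher and 12 lower, beside a background of 69.8%. The groups were free of overlap for 14 of the 28 tested members in BxPC3 (50%, beside 67.5% of all genes tested) and for 13 of 34 in PANC-1 (38.2%, beside 45.8%). All of these were called, and MT-TY, MT-TD and MT-TH were called in PANC-1 with overlapping groups.

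As a class, the mitochondrial mRNAs showed no difference in their share of the library that passed the test in either line, while the share of the rRNAs fell by 0.89 in BxPC3 and by 0.93 in PANC-1 on the log2 scale. Shares are reads of a class as a percent of all reads in listed genes, and group means of log2 share were compared with a 2-sided exact permutation test, adjusted over a family of 7. With 4 libraries against 4 its smallest p is 0.0286. In BxPC3 controls the 13 mRNAs held 2.7, 2.69, 2.69 and 2.72% of reads, and with gemcitabine 2.91, 2.84, 2.68 and 2.74%. The treated libraries spread more widely than the controls and overlapped them, and the difference did not pass the exact test (p = 0.171, adjusted p = 0.2). In PANC-1 the mRNA share was 1.42 ± 0.0359% (SD, n = 4) in controls and 1.44 ± 0.127% (SD, n = 4) with gemcitabine (exact p = 0.943). Gemcitabine replicate 1 was the lowest PANC-1 library, at 1.25%, against 1.47 to 1.52% in the other 3 treated libraries and 1.38 to 1.46% in controls. Without it the log2 difference was 0.08 and the groups did not overlap, and 3 libraries against 4 cannot give an exact p below 0.0571. Between the untreated lines, the mRNA share was 1.9-fold higher in BxPC3 than in PANC-1 (exact p = 0.0286, adjusted p = 0.04), with every BxPC3 library above every PANC-1 library.

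**Figure D1:**
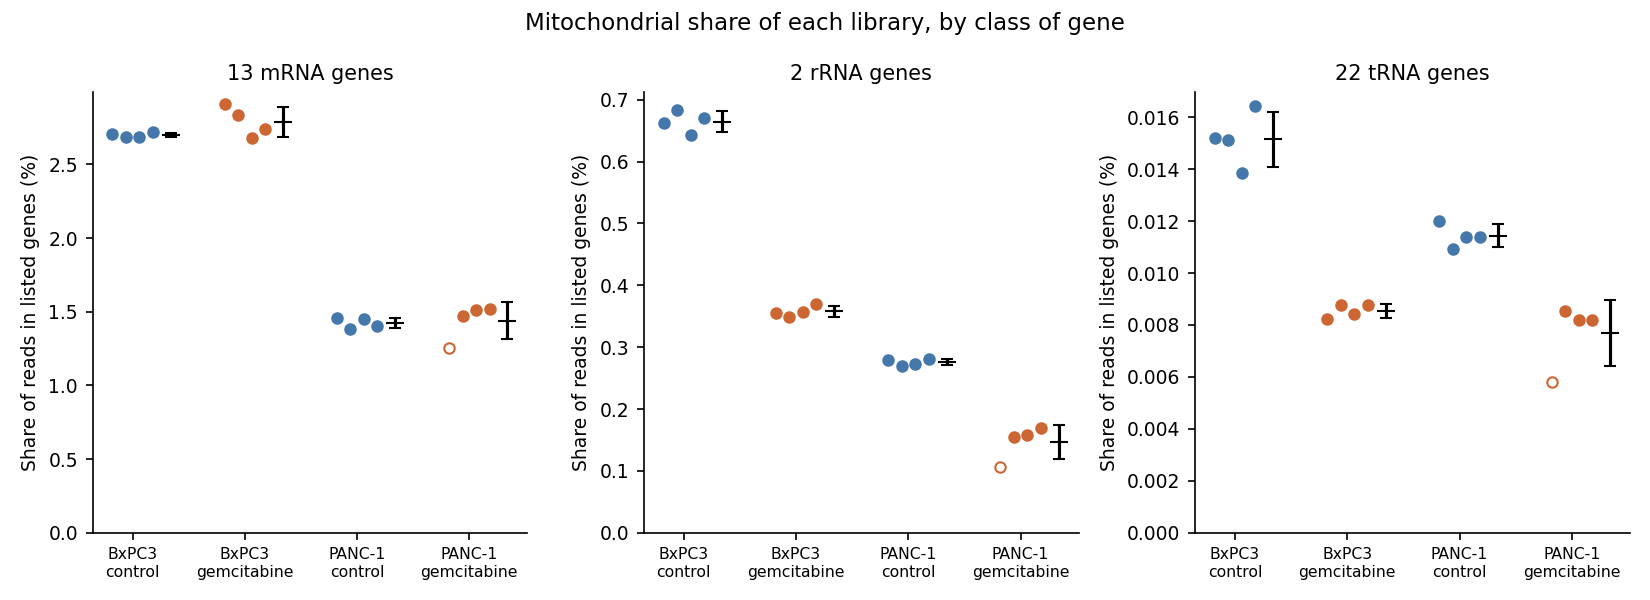
Share of reads in listed genes (%) held by the 13 mRNA, 2 rRNA and 22 tRNA genes in each of the 16 libraries, with the mean ± SD beside each group. The open circle is PANC-1 gemcitabine replicate 1. The rRNA and tRNA shares of treated libraries sit below all control libraries of their line, while mRNA shares overlap.

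The rRNA genes encode the RNA of the small (MT-RNR1, 12S) and large (MT-RNR2, 16S) subunit of the mitochondrial ribosome. Their joint share in BxPC3 was 0.662, 0.684, 0.643 and 0.67% in controls and 0.355, 0.348, 0.357 and 0.37% with gemcitabine. No treated library came near the controls, and the log2 change of -0.89 passed the exact permutation test (p = 0.0286, adjusted p = 0.04). In PANC-1 the share was 0.28, 0.27, 0.274 and 0.28% in controls and 0.106, 0.154, 0.158 and 0.169% with gemcitabine. The log2 change was -0.93 (exact p = 0.0286, adjusted p = 0.04), and without gemcitabine replicate 1, the lowest library, it was -0.78. Of all reads in mitochondrial genes, the rRNAs made up 19.7 ± 0.398% in BxPC3 controls and 11.3 ± 0.54% with gemcitabine (SD, n = 4 each). In PANC-1 they made up 16.1 ± 0.321% and 9.14 ± 0.947% (SD, n = 4 each).

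MT-RNR1 (ENSG00000211459, MT:648-1601, plus strand, non-coding RNA) measured 989.8, 1123, 942 and 1004 FPKM in BxPC3 controls and 420.2, 424, 508 and 509 FPKM with gemcitabine. The groups did not overlap, and the change was -1.13 ± 0.0837 (SE) on the log2(FPKM + 1) scale (limma, adjusted p = 1.01e-06). The PANC-1 values were 252, 278, 264 and 262 FPKM in controls and 151, 186, 199 and 245 FPKM with gemcitabine. All 4 treated libraries were lower than the lowest control, with a log2 change of -0.45 ± 0.128 (SE; limma, adjusted p = 0.0182) and of -0.34 without gemcitabine replicate 1 (limma, adjusted p = 0.0135). The PANC-1 call was lost without control replicate 2 (limma, adjusted p = 0.0511) and with no filter on low values (limma, adjusted p = 0.051). The fall was larger in BxPC3: the change in PANC-1 minus that in BxPC3 was 0.67 ± 0.161 (SE; limma interaction, adjusted p = 0.00241), and 0.79 without the PANC-1 library that stood apart.

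MT-RNR2 (ENSG00000210082, MT:1671-3229, plus strand, non-coding RNA) measured 3652, 3896, 3566 and 3733 FPKM in BxPC3 controls and 1934, 1918, 1943 and 2055 FPKM with gemcitabine. For PANC-1 the values were 1602, 1538, 1554 and 1601 FPKM in controls and 601, 866, 883 and 917 FPKM with gemcitabine. The groups were far apart in both lines, with a log2 change of -0.92 ± 0.0515 (SE; limma, adjusted p = 1.32e-07) in BxPC3 and of -0.96 ± 0.124 (SE; limma, adjusted p = 0.000279) in PANC-1. When PANC-1 gemcitabine replicate 1 was left out the PANC-1 change was -0.82 (limma, adjusted p = 2.25e-09). The difference between the lines was -0.05 ± 0.138 (SE; limma interaction, adjusted p = 0.803). Within a library, the mean FPKM of the rRNAs divided by that of the 13 mRNAs was 1.05 ± 0.025 in BxPC3 controls and 0.548 ± 0.0305 with gemcitabine, and 0.799 ± 0.0201 and 0.434 ± 0.0485 in PANC-1 (SD, n = 4 each). The ratio of MT-RNR2 to MT-RNR1 was 3.67 ± 0.137 and 4.25 ± 0.377 in BxPC3 and 5.97 ± 0.35 and 4.21 ± 0.423 in PANC-1 (SD, n = 4 each), so it was higher with gemcitabine in the first line and lower in the other, with no test of its own.

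**Figure D2:**
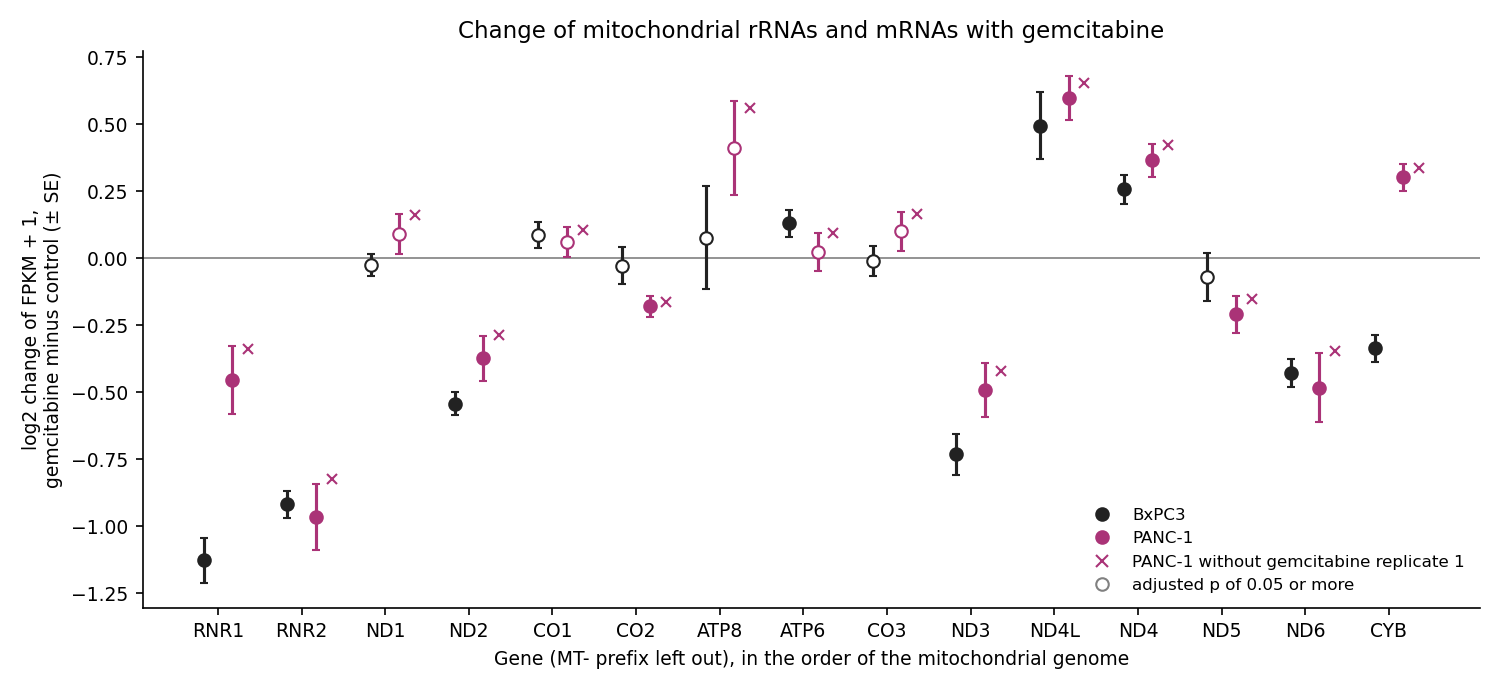
Change on the log2(FPKM + 1) scale, gemcitabine minus control, with its standard error, for the 2 rRNA and 13 mRNA genes in genome order. Filled circles passed the limma test at an adjusted p of 0.05; crosses give PANC-1 without gemcitabine replicate 1. Both rRNAs, MT-ND2, MT-ND3 and MT-ND6 lie below 0 in both lines, MT-ND4L and MT-ND4 above 0, and MT-CYB on opposite sides.

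The 13 mRNAs did not move as a block. With gemcitabine 3 rose, 4 fell and 6 did not pass the limma test in BxPC3, and 3 rose, 5 fell and 5 did not pass in PANC-1. The called share of the mRNAs was thus 53.8% in BxPC3, beside 73.4% of all genes tested, and 61.5% in PANC-1, beside 44.8%. The median log2 change of the 13 was -0.03 in BxPC3, beside 0.004 over all genes tested, and 0.06 in PANC-1, beside -0.02. MT-ND2, MT-ND3 and MT-ND6 were lower in both lines, MT-ND4L and MT-ND4 were higher in both, and MT-CYB moved in opposite directions. Without PANC-1 gemcitabine replicate 1, 8 mRNAs rose and 5 fell in PANC-1, where 69.8% of all genes were then called. Across the 13 mRNAs the log2 changes of the lines had the same sign for 10 and a Pearson r of 0.80 (Spearman rho 0.76), given as a description, since genes of a common precursor are not independent.

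Per length, MT-CO2 had the highest mean FPKM in the controls of both lines and MT-ATP8 the lowest. In BxPC3 controls the order of mean FPKM was MT-CO2 (5615), MT-CO1 (4685), MT-CO3 (3629), MT-ATP6 (3569), MT-ND4 (2416), MT-CYB (2371), MT-ND3 (1743), MT-ND2 (1418), MT-ND4L (1203), MT-ND6 (1087), MT-ND1 (868), MT-ND5 (659) and MT-ATP8 (62.9). Among neighbours in this order, the libraries of MT-CO3 and MT-ATP6 and those of MT-ND4L and MT-ND6 overlapped. In PANC-1 controls the order was MT-CO2 (2414), MT-CO1 (2008), MT-ND2 (1637), MT-CO3 (1499), MT-ND4 (1449), MT-ATP6 (1364), MT-ND3 (1259.6), MT-CYB (874), MT-ND1 (842), MT-ND4L (749.8), MT-ND6 (445), MT-ND5 (387) and MT-ATP8 (29.3). Overlapping neighbours there were MT-ND2 with MT-CO3, MT-CO3 with MT-ND4, MT-ATP6 with MT-ND3, MT-CYB with MT-ND1, MT-ND1 with MT-ND4L and MT-ND6 with MT-ND5. MT-ND2 stood below MT-CYB and MT-ND3 in BxPC3 and above both in PANC-1. The FPKM tables were made per line, so only the order within a line is compared.

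Complex I, the NADH dehydrogenase that feeds electrons into the chain, holds 7 mitochondrially encoded subunits, and these moved in both directions. MT-ND2 (ENSG00000198763, MT:4470-5511, plus strand), a membrane subunit of the proton-pumping arm, measured 1425, 1439, 1408 and 1401 FPKM in BxPC3 controls and 1011, 989.6, 939 and 957 FPKM with gemcitabine. In PANC-1 it measured 1695, 1615, 1656 and 1583 FPKM in controls and 1055, 1343, 1334 and 1345 FPKM with gemcitabine. The groups did not overlap in either line, and the log2 change was -0.54 ± 0.0447 (SE; limma, adjusted p = 2.18e-06) in BxPC3 and -0.37 ± 0.0824 (SE; limma, adjusted p = 0.00562) in PANC-1. With PANC-1 gemcitabine replicate 1 left out, the lowest of its group, the PANC-1 change was -0.29 (limma, adjusted p = 5.00e-06).

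MT-ND3 (ENSG00000198840, MT:10059-10404, plus strand), another membrane subunit of the complex, measured 1728, 1765, 1562 and 1916 FPKM in BxPC3 controls and 939, 1108, 1037 and 1112 FPKM with gemcitabine. The PANC-1 values were 1472, 1124, 1169 and 1273 FPKM in controls and 766, 953, 917 and 939 FPKM with gemcitabine. All treated libraries were again below all controls, with log2 changes of -0.73 ± 0.0771 (SE; limma, adjusted p = 1.33e-05) in BxPC3 and -0.49 ± 0.101 (SE; limma, adjusted p = 0.00383) in PANC-1. When PANC-1 gemcitabine replicate 1 was left out the latter was -0.42 (limma, adjusted p = 0.00483). The next protein gene downstream, beyond an arginine tRNA gene, went the other way. MT-ND4L (ENSG00000212907, MT:10470-10766, plus strand), a small membrane subunit, measured 1316, 913, 1249 and 1335 FPKM in BxPC3 controls and 1743, 1921, 1520.2 and 1555 FPKM with gemcitabine. For PANC-1 the values were 852, 725, 732 and 690.4 FPKM in controls and 1002, 1176, 1206 and 1154 FPKM with gemcitabine. Every treated library exceeded every control, with log2 changes of 0.50 ± 0.126 (SE; limma, adjusted p = 0.00513) in BxPC3 and 0.60 ± 0.0827 (SE; limma, adjusted p = 0.000423) in PANC-1.

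MT-ND4 (ENSG00000198886, MT:10760-12137, plus strand), a pumping subunit read from the same mRNA as MT-ND4L, measured 2409.9, 2389.8, 2412 and 2452 FPKM in BxPC3 controls and 3079.6, 2965, 2759.7 and 2765 FPKM with gemcitabine. In PANC-1 it measured 1485, 1434, 1464 and 1414 FPKM in controls and 1661, 1902, 1972 and 1953 FPKM with gemcitabine. Every treated library exceeded every control here too, with log2 changes of 0.26 ± 0.0534 (SE; limma, adjusted p = 0.00149) in BxPC3 and 0.37 ± 0.0612 (SE; limma, adjusted p = 0.00124) in PANC-1. Without PANC-1 gemcitabine replicate 1, MT-ND4L and MT-ND4 were 0.66 and 0.42 higher in PANC-1 on the log2 scale. Within a library the ratio of MT-ND4 to MT-ND3 was 1.39 ± 0.111 in controls and 2.78 ± 0.346 with gemcitabine in BxPC3, and 1.16 ± 0.125 and 2.1 ± 0.0789 in PANC-1 (SD, n = 4 each). The differences between the lines in MT-ND2, MT-ND3, MT-ND4L and MT-ND4 did not pass the limma interaction test (adjusted p = 0.154, 0.146, 0.626 and 0.275). With PANC-1 gemcitabine replicate 1 left out, those in MT-ND2 (0.25), MT-ND3 (0.31) and MT-ND4 (0.16) passed it (limma, adjusted p = 0.000447, 0.0325 and 0.023), with the change in PANC-1 the higher in each. That in MT-ND3 also passed without PANC-1 control replicate 1 (0.32, limma, adjusted p = 0.0456).

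MT-ND6 (ENSG00000198695, MT:14149-14673, minus strand), a membrane subunit, measured 1051, 1171, 1080.5 and 1044 FPKM in BxPC3 controls and 845, 799, 776 and 809 FPKM with gemcitabine. The PANC-1 values were 474, 404, 443 and 458 FPKM in controls and 239, 359, 325 and 363 FPKM with gemcitabine. No treated library reached the lowest control, and the log2 change was -0.43 ± 0.0531 (SE; limma, adjusted p = 4.40e-05) in BxPC3 and -0.48 ± 0.13 (SE; limma, adjusted p = 0.0146) in PANC-1. When PANC-1 gemcitabine replicate 1 was left out the latter was -0.35 (limma, adjusted p = 0.000615). MT-ND5, a pumping subunit whose gene ends beside MT-ND6 on the opposite strand, averaged 659 ± 59 and 628 ± 68.5 FPKM in BxPC3 controls and with gemcitabine (SD, n = 4 each; limma, adjusted p = 0.4996). In PANC-1 it averaged 387 ± 19.7 and 336 ± 25.9 FPKM (SD, n = 4 each), with a log2 change of -0.21 (limma, adjusted p = 0.0362) and of -0.15 without gemcitabine replicate 1 (limma, adjusted p = 0.00506). The call with all libraries was lost without any of 5 libraries (control replicates 1, 2 and 3 and gemcitabine replicates 2 and 3), with limma adjusted p of 0.0564 to 0.105, on TPM values (adjusted p = 0.0893) and with no filter on low values (adjusted p = 0.0806). MT-ND1, the first mRNA downstream of the rRNAs, averaged 868 ± 12 and 852 ± 14.2 FPKM in BxPC3 and 842 ± 38.6 and 900.00 ± 84.2 FPKM in PANC-1 (SD, n = 4 each), and passed the test in neither. Without PANC-1 gemcitabine replicate 1 its PANC-1 change was 0.16 (limma, adjusted p = 0.0021).

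**Figure D3:**
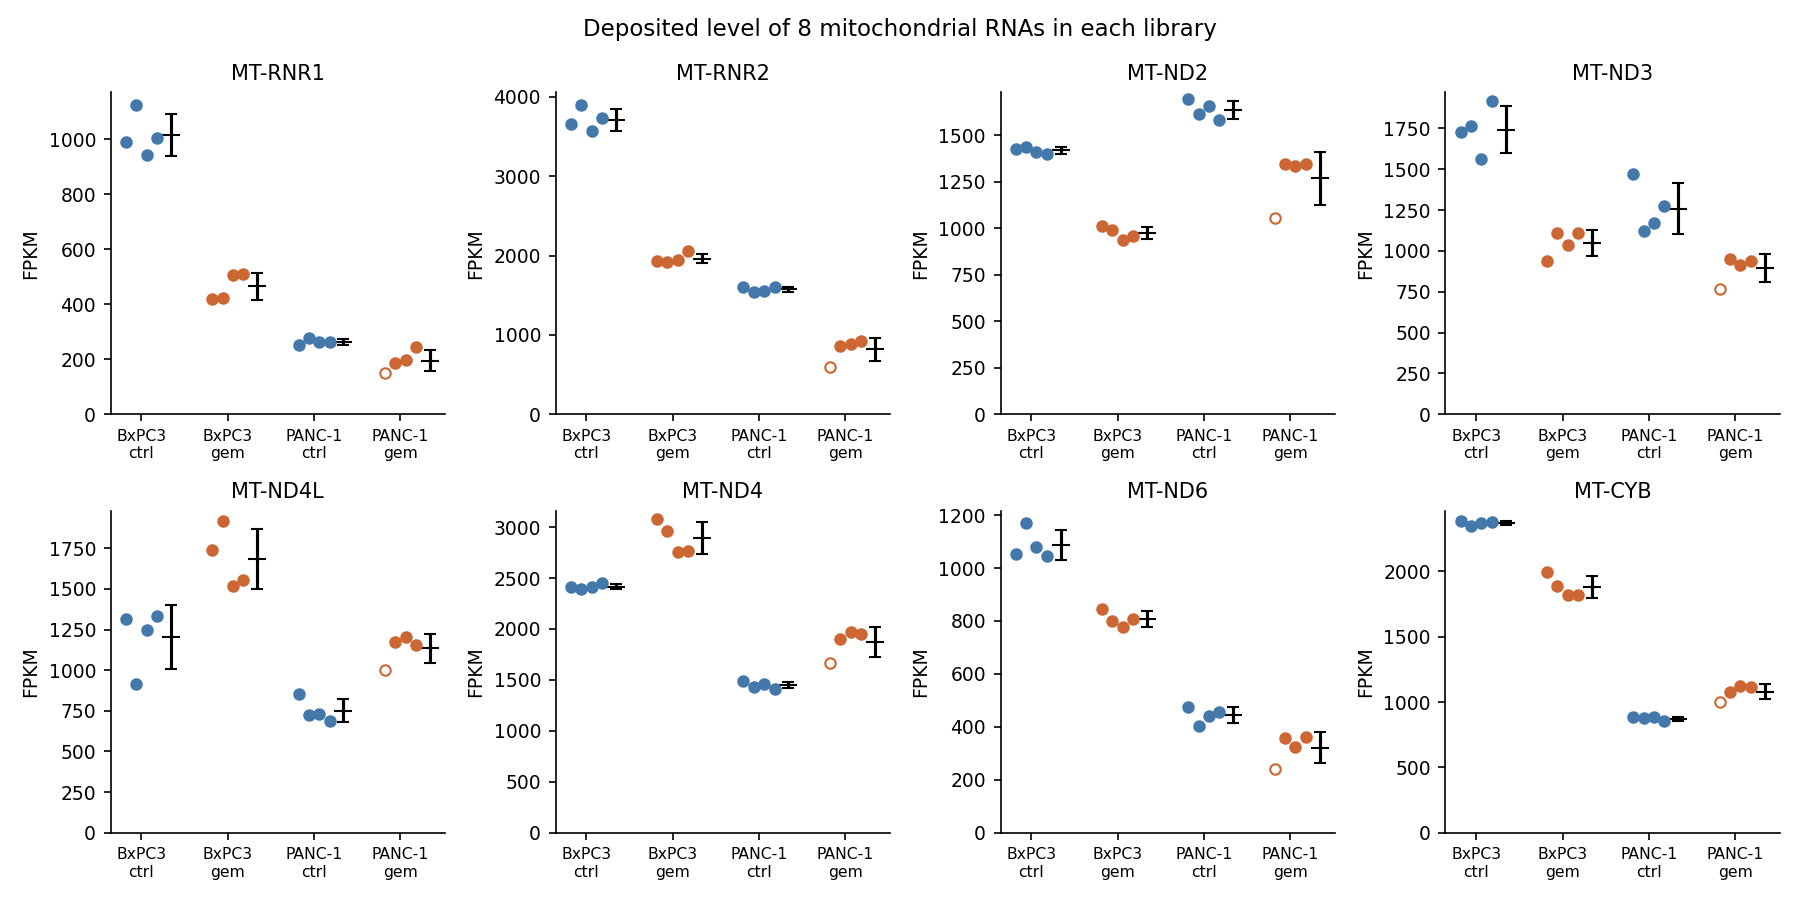
FPKM of MT-RNR1, MT-RNR2, MT-ND2, MT-ND3, MT-ND4L, MT-ND4, MT-ND6 and MT-CYB in each library, with the mean ± SD beside each group. The open circle is PANC-1 gemcitabine replicate 1. Treated and control libraries of a line do not overlap in any of the 8 panels.

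MT-CYB (ENSG00000198727, MT:14747-15887, plus strand), which encodes cytochrome b of complex III, measured 2388, 2345, 2369.7 and 2382 FPKM in BxPC3 controls and 1993, 1889, 1817 and 1819 FPKM with gemcitabine. For PANC-1 the values were 885, 875, 885 and 853 FPKM in controls and 999.7, 1077, 1122 and 1119 FPKM with gemcitabine. Treated libraries were all lower than controls in BxPC3 and all higher in PANC-1. The log2 change was -0.34 ± 0.0492 (SE; limma, adjusted p = 0.000144) in BxPC3 and 0.30 ± 0.051 (SE; limma, adjusted p = 0.00125) in PANC-1, the latter 0.34 without gemcitabine replicate 1. The difference between the lines was 0.64 ± 0.0668 (SE; limma interaction, adjusted p = 7.96e-07), and 0.67 without the PANC-1 library that stood apart. On FPKM with all libraries the differences of the other 12 mRNAs did not pass. That of MT-CO2 was -0.15 (limma interaction, adjusted p = 0.109), but passed on TPM values (-0.23, adjusted p = 0.00314), scaled to nuclear reads (-0.23, adjusted p = 0.00855), with limma-voom on recovered reads (-0.23, adjusted p = 0.00766) and without BxPC3 control replicate 2 (-0.21, adjusted p = 0.00644).

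Of the 3 subunits of complex IV, the cytochrome c oxidase, only MT-CO2 passed the test with all libraries, and in PANC-1 alone. MT-CO1 (MT:5904-7445), which holds the oxygen-reducing centre, averaged 4685 ± 84.4 and 4976 ± 139 FPKM in BxPC3 and 2008 ± 59.4 and 2097 ± 130.2 FPKM in PANC-1 (SD, n = 4 each; limma, adjusted p = 0.139 and 0.411). In BxPC3 MT-CO1 passed on TPM values (0.17, limma, adjusted p = 0.00218), on values scaled to nuclear reads (0.14, adjusted p = 0.0111) and with limma-voom on recovered reads (0.14, adjusted p = 0.00122), given as log2 changes. MT-CO2 (MT:7586-8269), the subunit that accepts electrons from cytochrome c, averaged 5615 ± 467 and 5499.8 ± 222 FPKM in BxPC3 (SD, n = 4 each; limma, adjusted p = 0.737). In PANC-1 it measured 2415, 2405, 2405 and 2429 FPKM in controls and 2063, 2118, 2179.98 and 2165 FPKM with gemcitabine. The groups did not overlap, and MT-CO2 fell by 0.18 on the log2 scale (limma, adjusted p = 0.00524), with a log2 change of -0.16 without gemcitabine replicate 1 (limma, adjusted p = 6.78e-05). MT-CO3 (MT:9207-9990) averaged 3629 ± 166 and 3601 ± 137 FPKM in BxPC3 and 1499 ± 62.7 and 1612 ± 156 FPKM in PANC-1 (SD, n = 4 each; limma, adjusted p = 0.864 and 0.306). On TPM values its BxPC3 log2 change was 0.08 (limma, adjusted p = 0.0186), against -0.01 on FPKM. With PANC-1 gemcitabine replicate 1 left out, MT-CO1 (0.11) and MT-CO3 (0.17) passed as higher in PANC-1 on the log2 scale (limma, adjusted p = 0.00604 and 0.0044).

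The subunits of complex V, the ATP synthase, are MT-ATP6 (MT:8527-9207), part of the proton channel, and the short MT-ATP8 (MT:8366-8572). MT-ATP6 averaged 3569 ± 80.2 FPKM in BxPC3 controls and 3906 ± 136 FPKM with gemcitabine (SD, n = 4 each), a log2 change of 0.13 (limma, adjusted p = 0.0396). That call was lost on leaving out any of 6 of the 8 libraries (all but control replicate 2 and gemcitabine replicate 4), with limma adjusted p of 0.053 to 0.106. In PANC-1, MT-ATP6 averaged 1364 ± 25 and 1390.4 ± 132 FPKM (SD, n = 4 each; limma, adjusted p = 0.823), and without gemcitabine replicate 1 its log2 change was 0.09 (limma, adjusted p = 0.00563). MT-ATP8 averaged 62.9 ± 6.85 and 68.5 ± 22.7 FPKM in BxPC3 and 29.3 ± 5.34 and 39.4 ± 7.7 FPKM in PANC-1 (SD, n = 4 each), and passed in neither line (limma, adjusted p = 0.73 and 0.0871). When PANC-1 gemcitabine replicate 1 was left out its PANC-1 log2 change was 0.56 (limma, adjusted p = 0.0189). Although both frames are read from the same mRNA, the ratio of MT-ATP6 to MT-ATP8 within a library averaged 57.4 ± 8.09 in BxPC3 controls and 47.9 ± 9.74 in PANC-1 controls (SD, n = 4 each). How reads of overlapping and short gene models were assigned is not given in the sources used here.

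The make-up of the mRNA pool is each gene as a percent of the summed FPKM of the 13 within a library, which cancels the scaling between libraries. Each gene was compared in both lines with a 2-sided exact permutation test, adjusted over the 26 tests. In BxPC3, MT-CO1, MT-ATP6, MT-ND4L and MT-ND4 took a larger part of the pool with gemcitabine, and MT-ND2, MT-ND3, MT-ND6 and MT-CYB a smaller one. In PANC-1, MT-CO1, MT-ND4L, MT-ND4 and MT-CYB took a larger part, and MT-ND2, MT-CO2, MT-ND3, MT-ND5 and MT-ND6 a smaller one. Each of these had an exact adjusted p of 0.0437, the same for all because it follows from groups that do not overlap. Without PANC-1 gemcitabine replicate 1, 11 of the 13 genes had groups free of overlap in PANC-1, where 3 libraries against 4 allow no exact p under the threshold. MT-ND4 went from 8.24 ± 0.216% to 10.03 ± 0.405% in BxPC3 and from 9.69 ± 0.128% to 12.4 ± 0.0776% in PANC-1 (SD, n = 4 each). MT-ND3 went from 5.94 ± 0.426% to 3.64 ± 0.292% in BxPC3 and from 8.41 ± 0.863% to 5.92 ± 0.199% in PANC-1 (SD, n = 4 each). MT-CO1 went from 16 ± 0.164% to 17.3 ± 0.178% and from 13.4 ± 0.297% to 13.9 ± 0.218% (SD, n = 4 each). Summed by complex, the 7 complex I genes made up 32 ± 1.25% and 30.8 ± 0.948% of the pool in BxPC3 and 45.2 ± 1.2% and 44.6 ± 0.915% in PANC-1 (SD, n = 4 each). Its members moved in opposite directions while the sum differed by less than 1 SD of the controls. Complex V went from 12.4 ± 0.189% to 13.8 ± 0.326% in BxPC3 and from 9.32 ± 0.192% to 9.47 ± 0.257% in PANC-1 (SD, n = 4 each). Complex III, MT-CYB alone, went from 8.09 ± 0.226% to 6.52 ± 0.22% in BxPC3 and from 5.85 ± 0.126% to 7.17 ± 0.207% in PANC-1 (SD, n = 4 each). Sums by complex were not tested.

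**Figure D4:**
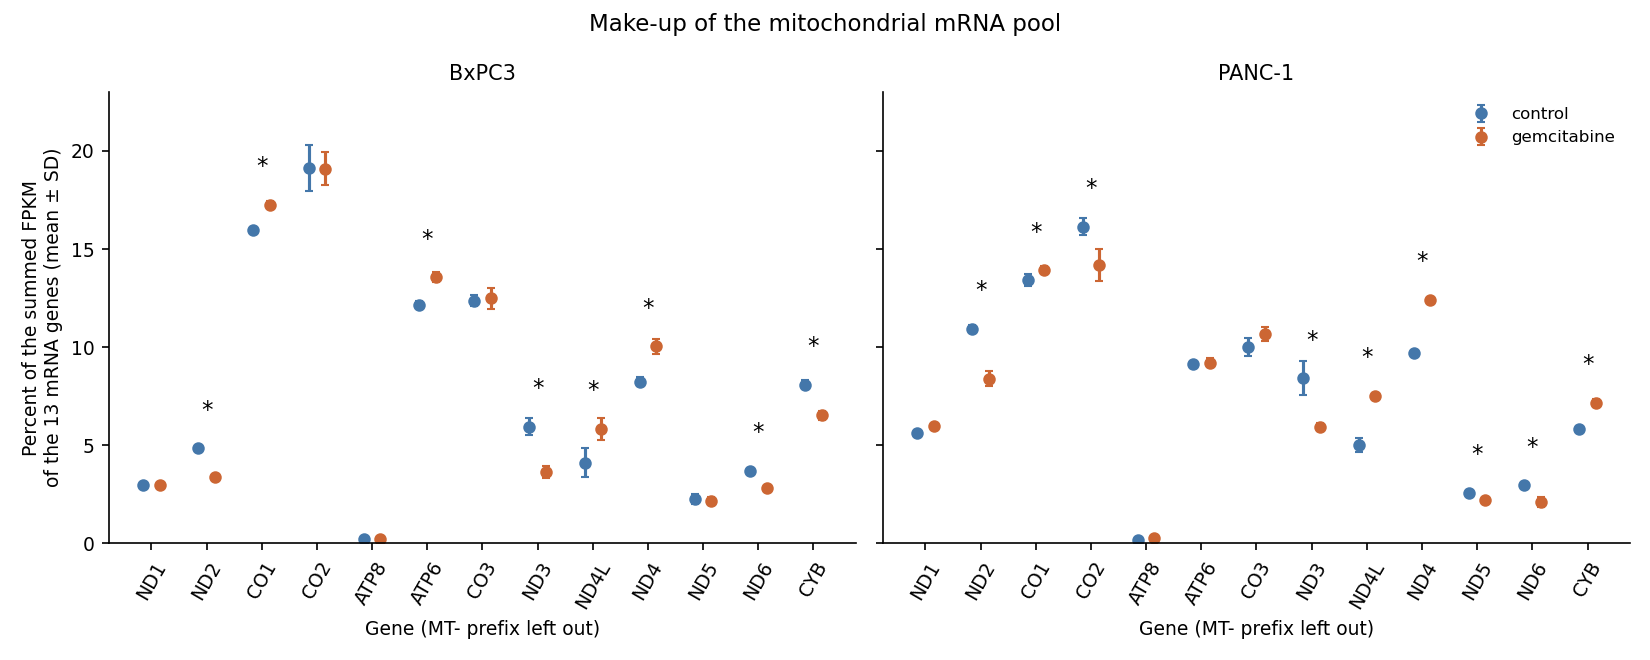
Each mRNA gene as a percent of the summed FPKM of the 13 mRNA genes, mean ± SD of 4 libraries, for controls and gemcitabine in each line. Asterisks mark an exact permutation adjusted p of 0.0437. MT-ND4L and MT-ND4 are higher and MT-ND2, MT-ND3 and MT-ND6 lower with gemcitabine in both lines.

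The tRNA genes held 51092 reads in all 16 libraries together, and 96.9% of these lay in 5 of the 22 genes, MT-TC, MT-TN, MT-TP, MT-TY and MT-TL1. Mature tRNAs are short and carry no poly-A tail, and the files do not tell whether a read came from a tRNA or from a longer RNA that runs through its gene. The tRNA share of reads fell in both lines. It was 0.0152 ± 0.00106% in BxPC3 controls and 0.00854 ± 0.000257% with gemcitabine (SD, n = 4 each; exact permutation p = 0.0286, adjusted p = 0.04). In PANC-1 it was 0.0114 ± 0.00044% and 0.00769 ± 0.00126% (SD, n = 4 each; exact permutation p = 0.0286, adjusted p = 0.04). Treated and control libraries did not overlap in either line. The log2 change in PANC-1 was -0.59, and -0.46 without gemcitabine replicate 1.

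MT-TN, MT-TC and MT-TY carry asparagine, cysteine and tyrosine and lie on the minus strand within MT:5512-5903, the 392 bases between MT-ND2 and MT-CO1. They fell in both lines and together held most of the tRNA reads. MT-TP held more reads than MT-TY but passed the test in BxPC3 alone, and is left out here. The sequences are written 5′ to 3′ on the coding strand, with the anticodon in capitals.
MT-TN, MT:5657-5729: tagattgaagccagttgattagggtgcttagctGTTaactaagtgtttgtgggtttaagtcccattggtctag
MT-TC, MT:5761-5826: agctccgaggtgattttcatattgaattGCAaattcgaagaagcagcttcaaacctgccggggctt
MT-TY, MT:5826-5891: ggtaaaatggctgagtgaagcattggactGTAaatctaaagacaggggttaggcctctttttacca

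MT-TN (minus strand) measured 840.5, 844, 757 and 991 FPKM in BxPC3 controls and 295, 347, 351 and 399.9 FPKM with gemcitabine. The PANC-1 values were 433, 354, 289 and 353 FPKM in controls and 144, 248, 211 and 219 FPKM with gemcitabine. The groups did not overlap in either line, and the log2 change was -1.30 ± 0.102 (SE; limma, adjusted p = 1.49e-06) in BxPC3 and -0.81 ± 0.175 (SE; limma, adjusted p = 0.00515) in PANC-1. MT-TC (minus strand) measured 742, 834, 635 and 815 FPKM in BxPC3 controls and 306, 339.6, 348 and 333 FPKM with gemcitabine. For PANC-1 the values were 769, 729.97, 785 and 722 FPKM in controls and 374, 496, 489 and 455 FPKM with gemcitabine. Both lines were again separated, with log2 changes of -1.18 ± 0.0857 (SE; limma, adjusted p = 8.42e-07) in BxPC3 and -0.74 ± 0.0902 (SE; limma, adjusted p = 0.000213) in PANC-1. The difference between the lines in MT-TC was 0.45 ± 0.132 (SE; limma interaction, adjusted p = 0.00986). MT-TY fell by 0.61 in BxPC3 and by 0.46 in PANC-1 on the log2 scale (limma, adjusted p = 0.00148 and 0.0163). In PANC-1 its groups overlapped, and the call was lost without control replicate 3 (limma, adjusted p = 0.0502). Without gemcitabine replicate 1 the PANC-1 log2 changes were -0.65 in MT-TN, -0.65 in MT-TC and -0.39 in MT-TY (limma, adjusted p = 0.0071, 1.59e-07 and 0.0437), and the difference between the lines was 0.65 in MT-TN and 0.54 in MT-TC (limma interaction, adjusted p = 0.00411 and 0.000395). With all libraries the difference in MT-TN was 0.49 (adjusted p = 0.0696). Of the protein genes on either side of this stretch, MT-ND2 fell in both lines and MT-CO1 did not pass.

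MT-TL1 (MT:3230-3304, plus strand), a leucine tRNA gene next to the 3′ end of MT-RNR2, rose in BxPC3, where MT-RNR2 fell. It measured 7.62, 5.77, 10.2 and 8.57 FPKM in BxPC3 controls and 24.9, 22.3, 20.1 and 17.1 FPKM with gemcitabine. All treated libraries were higher, with a log2 change of 1.30 ± 0.156 (SE; limma, adjusted p = 4.82e-05), on 80 reads in the controls together and 210 with gemcitabine. In PANC-1 it measured 133, 122, 143 and 134 FPKM in controls and 79.2, 110.2, 137 and 146 FPKM with gemcitabine, and the groups overlapped (limma, adjusted p = 0.37). The difference between the lines was -1.51 ± 0.249 (SE; limma interaction, adjusted p = 9.96e-05), and -1.33 without PANC-1 gemcitabine replicate 1. MT-TP, a proline tRNA gene on the minus strand beside the control region, averaged 476 ± 17.5 and 419 ± 17.3 FPKM in BxPC3 and fell by 0.18 on the log2 scale (SD, n = 4 each; limma, adjusted p = 0.00658), a call lost on TPM values (adjusted p = 0.0754). In PANC-1 it averaged 126 ± 22.8 and 126 ± 11.2 FPKM (SD, n = 4 each; limma, adjusted p = 0.939).

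The other 17 tRNA genes held few reads, at most 216 each over all 16 libraries. Of these, MT-TM, the methionine tRNA gene, fell from 16.2 ± 1.78 to 7.09 ± 0.811 FPKM in PANC-1 (SD, n = 4 each; limma, adjusted p = 3.29e-05), on 109 and 53 reads. MT-TD, for aspartate, fell from 13.4 ± 4.32 to 4.27 ± 2.62 FPKM and MT-TH, for histidine, rose from 2.65 ± 1.03 to 6.33 ± 2.45 FPKM in PANC-1, each with overlapping groups (SD, n = 4 each; limma, adjusted p = 0.00612 and 0.0166). Without gemcitabine replicate 1 the PANC-1 log2 changes were -1.03 in MT-TM, -1.39 in MT-TD and 1.03 in MT-TH (limma, adjusted p = 4.21e-06, 0.0313 and 0.0453). MT-TG, for glycine, and MT-TL2, another leucine tRNA gene, then also passed as higher, with log2 changes of 2.00 and 1.82 (limma, adjusted p = 0.0199 and 0.0136). That library had no read in either, and with it in the fit their adjusted p was 0.255 and 0.142 (limma). In BxPC3, MT-TM and MT-TD were not tested and MT-TH did not pass (limma, adjusted p = 0.296). No read was counted in MT-TS1 or MT-TW in any BxPC3 library, whereas MT-TS1 held 47 reads in PANC-1 controls and 33 with gemcitabine.

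**Figure D5:**
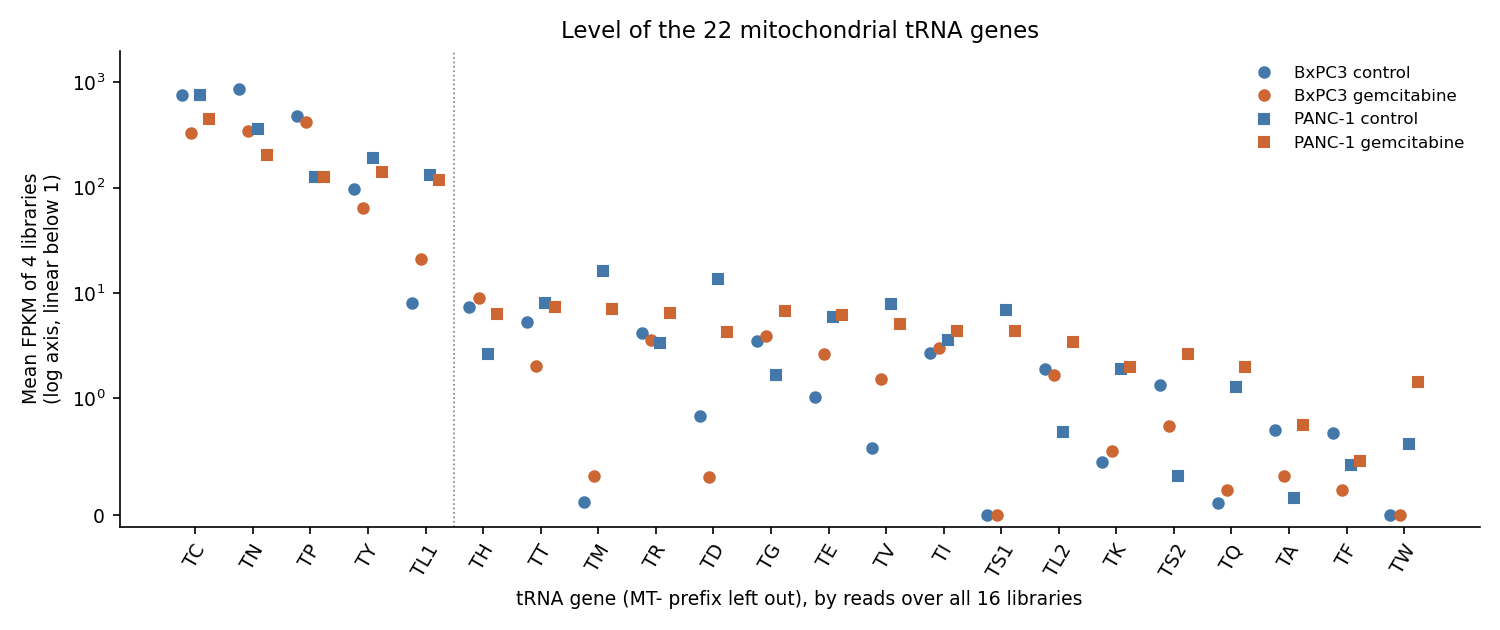
Mean FPKM of the 22 tRNA genes in each of the 4 groups, on an axis that is logarithmic above 1 and linear below, ordered by reads over all 16 libraries. The dotted line parts the 5 genes that hold 96.9% of the tRNA reads from the other 17.

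Of the 27 members that passed the filter in both lines, 4 differed between the lines in their change with gemcitabine (limma interaction), beside a background of 49.7% of genes tested in both lines. They were MT-RNR1, MT-CYB, MT-TL1 and MT-TC, described above. Without PANC-1 gemcitabine replicate 1, 12 of the 27 differed, where 65% of all genes in the interaction fit passed. A share limited to genes tested in both lines was not taken for that setting. Over all 36 members in the interaction fit 7 passed, beside a background of 51.8%, and without that library 16 passed, beside 65%. The other 3 of the 7, MT-TV, MT-TM and MT-TS1, entered the fit through PANC-1 alone, so no difference in response is read from them. In BxPC3, MT-TV had 5 reads in controls and 14 with gemcitabine, MT-TM 1 and 3, and MT-TS1 none. Of these, MT-TV and MT-TS1 did not pass in PANC-1 itself (limma, adjusted p = 0.104 and 0.0518).

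Nuclear copies of mitochondrial sequence could share reads with these genes. The tables list 394 such pseudogenes, of which 286 had no read in any library. Their reads equalled 0.375 to 1.13% of the mitochondrial reads per library, and 98.9 to 99.8% of these lay in 3 genes of chromosome 1, MTATP6P1, MTND2P28 and MTCO1P12. On GRCh38 these span 1:633696-634376, 1:629640-630683 and 1:631074-632616. Their sequences were 98.5% identical to MT-ATP6, 98.2% to MT-ND2 and 98.6% to MT-CO1, so the split of reads within each pair is uncertain. MTND2P28 fell in BxPC3, like MT-ND2, from 70.7 ± 8.03 to 58 ± 6.13 FPKM, with overlapping groups (SD, n = 4 each; limma, adjusted p = 0.0218). In PANC-1 it averaged 97.2 ± 8.14 and 82.5 ± 14.9 FPKM (SD, n = 4 each; limma, adjusted p = 0.167). MTATP6P1 and MTCO1P12 passed in neither line (limma, adjusted p = 0.142 and 0.635 in BxPC3, 0.691 and 0.154 in PANC-1).

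Nuclear genes that express and maintain the mitochondrial genome were listed in 6 groups with 102 members. In BxPC3, 54 of 96 tested members rose and 18 fell, with a median log2 change of 0.19 beside 0.004 over all genes tested, where 37.3% of genes rose and 36.1% fell. In PANC-1, 8 of 98 rose and 26 fell, with a median of -0.07 beside -0.02 over all genes, where 20.7% rose and 24.0% fell. With PANC-1 gemcitabine replicate 1 left out, 21 rose and 43 fell, where 32.8% of all genes rose and 37% fell. For the difference between the lines, 8 of 99 were higher and 47 lower in PANC-1 than in BxPC3 (limma interaction), beside 25.2% and 26.6% of all genes. No called member of these lists reached an absolute change of 1 on the damped log2(FPKM + 1) scale in either line. By the ratio of mean FPKM, 3 of the 72 called members differed by 2-fold or more in BxPC3, namely DNA2 (2.28-fold higher), PNPT1 (2.16-fold) and SLIRP (2.01-fold), and 1 of 34 in PANC-1, YBEY (2.01-fold lower). Of the 37 nuclear genes described by name, 17 were called in PANC-1 with all libraries, and all 17 were called in the same direction without gemcitabine replicate 1, with the log2 change shifted by -0.09 to 0.14. Another 7 were called only without that library (PNPT1, GABPB1, NOA1, ATP5MC1, POLRMT, TEFM and SLIRP). Calls among all genes tested rose from 44.8% to 69.8% when it was left out. Many of the 37 were named for a small p in these data, and both fits share all other libraries, so the kept calls are no check of their own.

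In the list of RNA processing, stability and decay, 17 of 21 tested genes rose (81.0%, beside 37.3% of all genes) and 1 fell in BxPC3. In PANC-1, none of 22 rose and 5 fell (22.7%, beside 24.0% of all genes), while without gemcitabine replicate 1, 8 rose and 8 fell (36.4% each, beside 32.8% and 37%). For the difference itself, 15 of 22 were lower in PANC-1 than in BxPC3 (68.2%, beside 26.6% of all genes) and none higher (limma interaction). PNPT1, an exoribonuclease that degrades mitochondrial RNA, measured 4.32, 4.99, 4.78 and 4.56 FPKM in BxPC3 controls and 10.1, 10.2, 9.87 and 10.01 FPKM with gemcitabine. The treated libraries all lay far above the controls, with a log2 change of 0.97 ± 0.043 (SE; limma, adjusted p = 2.69e-08). In PANC-1, PNPT1 averaged 10.4 ± 0.572 and 12.8 ± 2.35 FPKM (SD, n = 4 each; limma, adjusted p = 0.127), and without gemcitabine replicate 1 its log2 change was 0.39 (limma, adjusted p = 2.15e-05). The difference between the lines was -0.71 ± 0.136 (SE; limma interaction, adjusted p = 0.000407). SUPV3L1, the helicase that works with PNPT1, rose from 5.73 ± 0.286 to 7.07 ± 0.171 FPKM in BxPC3 (SD, n = 4 each; limma, adjusted p = 0.000224) and did not pass in PANC-1 (limma, adjusted p = 0.964).

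LRPPRC and SLIRP form a complex that stabilises mitochondrial mRNAs. LRPPRC rose from 13 ± 0.439 to 16.2 ± 0.23 FPKM in BxPC3 (SD, n = 4 each; limma, adjusted p = 2.26e-05) and fell from 41.5 ± 1.79 to 29.5 ± 3.63 FPKM in PANC-1 (SD, n = 4 each; limma, adjusted p = 0.00239). The groups did not overlap in either line, and the difference between the lines was -0.79 ± 0.0997 (SE; limma interaction, adjusted p = 6.48e-06). SLIRP rose from 6.39 ± 0.959 to 12.8 ± 0.401 FPKM in BxPC3 (SD, n = 4 each; limma, adjusted p = 4.03e-06). In PANC-1 SLIRP averaged 9.2 ± 0.6999 and 10.3 ± 0.369 FPKM (SD, n = 4 each; limma, adjusted p = 0.0829), and it passed without gemcitabine replicate 1 (0.17 on the log2 scale; limma, adjusted p = 0.017). MTPAP, the mitochondrial poly-A polymerase, rose from 1.81 ± 0.167 to 2.3 ± 0.12 FPKM in BxPC3 and fell from 2.89 ± 0.108 to 1.9 ± 0.266 FPKM in PANC-1 (SD, n = 4 each; limma, adjusted p = 0.00304 and 0.00163). PTCD1, which takes part in the processing of mitochondrial RNA, averaged 0.931 ± 0.133 and 1.001 ± 0.157 FPKM in BxPC3 and fell from 1.78 ± 0.2004 to 0.961 ± 0.102 FPKM in PANC-1 (SD, n = 4 each; limma, adjusted p = 0.539 and 0.0003999).

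In the list of transcription and its regulation, 4 of 10 rose and 1 fell in BxPC3 (50% called, beside 73.4% of all genes). In PANC-1 none of 11 rose and 5 fell (45.5% called, beside 44.8%), and without gemcitabine replicate 1 none rose and 8 fell (72.7%, beside 69.8%). POLRMT, the mitochondrial RNA polymerase, averaged 14.5 ± 0.4998 and 14.7 ± 1.3 FPKM in BxPC3 (SD, n = 4 each; limma, adjusted p = 0.897). In PANC-1 it averaged 22.8 ± 1.87 and 17.6 ± 5.27 FPKM (SD, n = 4 each; limma, adjusted p = 0.0877), and without gemcitabine replicate 1 its log2 change was -0.57 (limma, adjusted p = 4.95e-06). TFAM, which packs mitochondrial DNA and opens its promoters, rose from 9.06 ± 0.291 to 10.3 ± 0.19 FPKM in BxPC3 (SD, n = 4 each; limma, adjusted p = 0.00131). TFB2M, the initiation factor, rose there from 8.81 ± 0.703 to 11.4 ± 0.576 FPKM (SD, n = 4 each; limma, adjusted p = 0.000415). Neither passed in PANC-1 (limma, adjusted p = 0.626 and 0.733). TEFM, the elongation factor, passed in neither line (limma, adjusted p = 0.405 and 0.0568), although it passed in PANC-1 without gemcitabine replicate 1 (-0.17 on the log2 scale, adjusted p = 0.0308).

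In the list of replication and maintenance of mitochondrial DNA, 10 of 20 rose and 6 fell in BxPC3 (80% called, beside 73.4% of all genes). In PANC-1, 4 of 20 rose and 4 fell (40%, beside 44.8%), and without gemcitabine replicate 1, 4 rose and 7 fell (55%, beside 69.8%). TWNK, the replicative helicase, rose from 5.14 ± 0.176 to 7.39 ± 0.397 FPKM in BxPC3 and fell from 19.8 ± 0.522 to 17 ± 1.73 FPKM in PANC-1, there with overlapping groups (SD, n = 4 each; limma, adjusted p = 8.34e-06 and 0.0373). POLG, the mitochondrial DNA polymerase, rose from 13.5 ± 1.23 to 15.5 ± 0.679 FPKM in BxPC3 (SD, n = 4 each; limma, adjusted p = 0.0161) and did not pass in PANC-1 (limma, adjusted p = 0.518). TK2, the mitochondrial thymidine kinase, which also phosphorylates deoxycytidine, fell from 10.5 ± 0.0922 to 7.97 ± 0.186 FPKM in BxPC3 (SD, n = 4 each; limma, adjusted p = 4.54e-06) and did not pass in PANC-1 (limma, adjusted p = 0.664). MPV17, an inner-membrane protein needed to maintain mitochondrial DNA, fell from 5.21 ± 0.169 to 2.82 ± 0.173 FPKM in BxPC3 (SD, n = 4 each; limma, adjusted p = 3.54e-07) and did not pass in PANC-1 (limma, adjusted p = 0.601). DNA2, a nuclease and helicase that also acts in the nucleus, rose in both lines, from 0.92 ± 0.168 to 2.09 ± 0.242 FPKM and from 2.54 ± 0.0838 to 4.78 ± 1.003 FPKM (SD, n = 4 each; limma, adjusted p = 1.97e-05 and 0.00193). RNASEH1, which removes RNA from RNA-DNA hybrids, rose in both too, from 2.75 ± 0.343 to 4.26 ± 0.441 FPKM and from 12.2 ± 0.478 to 16.4 ± 0.205 FPKM (SD, n = 4 each; limma, adjusted p = 0.000266 and 0.000254).

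For rRNA modification and ribosome assembly, 13 of 24 rose and 5 fell in BxPC3 (75% called, beside 73.4% of all genes). In PANC-1, 2 of 24 rose and 7 fell (37.5%, beside 44.8%), and without gemcitabine replicate 1, 3 rose and 12 fell (62.5%, beside 69.8%). METTL15, which methylates the 12S rRNA, fell in both lines, from 3.12 ± 0.105 to 1.85 ± 0.0974 FPKM and from 6.11 ± 0.393 to 4.33 ± 0.839 FPKM (SD, n = 4 each; limma, adjusted p = 1.91e-06 and 0.0156). YBEY, an endonuclease of ribosome maturation, also fell in both, from 1.59 ± 0.23 to 0.986 ± 0.0737 FPKM and from 5.32 ± 0.361 to 2.65 ± 0.174 FPKM (SD, n = 4 each; limma, adjusted p = 0.000538 and 1.49e-05). MRM2, a methyltransferase of the 16S rRNA, rose in both, from 17.6 ± 1.15 to 22.6 ± 0.933 FPKM and from 23.7 ± 0.405 to 30.7 ± 0.437 FPKM (SD, n = 4 each; limma, adjusted p = 0.00015 and 0.000314). MRM3, another 16S methyltransferase, rose from 2.54 ± 0.207 to 3.23 ± 0.497 FPKM in BxPC3, with overlapping groups, and fell from 15.1 ± 0.302 to 8.86 ± 0.915 FPKM in PANC-1 (SD, n = 4 each; limma, adjusted p = 0.0212 and 6.54e-05). MPV17L2 and DHX30, assembly factors, rose in BxPC3, from 6.72 ± 0.557 to 12.5 ± 0.485 FPKM and from 12 ± 0.493 to 17.7 ± 0.535 FPKM (SD, n = 4 each; limma, adjusted p = 5.47e-07 and 1.02e-06). Neither passed in PANC-1 (limma, adjusted p = 0.64 and 0.589). NOA1, a GTPase of ribosome assembly, fell from 16.6 ± 0.91 to 12.5 ± 0.272 FPKM in BxPC3 (SD, n = 4 each; limma, adjusted p = 1.98e-05) and did not pass in PANC-1 with all libraries (limma, adjusted p = 0.105), but did without gemcitabine replicate 1 (adjusted p = 0.00298).

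Among translation factors, 7 of 13 rose and 3 fell in BxPC3 (76.9% called, beside 73.4% of all genes). In PANC-1, 2 of 13 rose and 3 fell (38.5%, beside 44.8%), and without gemcitabine replicate 1, 3 rose and 5 fell (61.5%, beside 69.8%). MTRF1L, a release factor, rose in both lines, from 2.6 ± 0.267 to 4.48 ± 0.212 FPKM and from 4.42 ± 0.0906 to 6.08 ± 0.664 FPKM (SD, n = 4 each; limma, adjusted p = 6.54e-06 and 0.00258). C12orf65, a ribosome rescue factor, fell in both, from 4.37 ± 0.169 to 3.49 ± 0.204 FPKM and from 7.52 ± 0.306 to 4.36 ± 0.41 FPKM (SD, n = 4 each; limma, adjusted p = 0.000548 and 6.23e-05). Of nuclear regulators of mitochondrial biogenesis, 3 of 8 rose and 2 fell in BxPC3 (62.5% called, beside 73.4% of all genes). In PANC-1 none of 8 rose and 2 fell (25% called, beside 44.8%), whereas without gemcitabine replicate 1, 3 rose and 3 fell (75%, beside 69.8%). GABPB1, a subunit of the transcription factor NRF-2, rose from 3.3 ± 0.188 to 5.11 ± 0.177 FPKM in BxPC3 (SD, n = 4 each; limma, adjusted p = 3.39e-06). In PANC-1 it passed only without gemcitabine replicate 1 (0.19 on the log2 scale; limma, adjusted p = 0.00219, against 0.0692 with all libraries).

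The nuclear-encoded subunits of oxidative phosphorylation are the partners of the 13 mitochondrial proteins. In BxPC3, 20 of 75 tested rose and 12 fell (42.7% called, beside 73.4% of all genes), with a median log2 change of 0.06. On TPM values 40 rose and 10 fell, and with limma-voom on recovered reads 32 rose and 12 fell. The shares of all genes under these settings are not given here, so no rise particular to these subunits is read from them. In PANC-1, 4 of 74 rose and 12 fell (21.6%, beside 44.8%), with a median of -0.04, and without gemcitabine replicate 1, 10 rose and 29 fell (52.7%, beside 69.8%). In complex III, CYC1, cytochrome c1, rose in BxPC3 from 93 ± 2.3 to 137 ± 8.55 FPKM (SD, n = 4 each; limma, adjusted p = 3.67e-06), where MT-CYB fell, and did not pass in PANC-1 (limma, adjusted p = 0.696). UQCRFS1, the Rieske iron-sulphur protein of the same complex, did not pass in BxPC3 (limma, adjusted p = 0.58) and rose in PANC-1, as MT-CYB did, from 47 ± 1.77 to 56.4 ± 0.581 FPKM (SD, n = 4 each; limma, adjusted p = 0.00285). ATP5MC1 and ATP5MC2 encode the same membrane ring protein of complex V. In BxPC3 ATP5MC1 rose from 15.6 ± 1.31 to 27.4 ± 2.69 FPKM and ATP5MC2 fell from 36.1 ± 2.56 to 18.8 ± 1.12 FPKM (SD, n = 4 each; limma, adjusted p = 8.28e-06 and 3.36e-07). In PANC-1 ATP5MC2 fell as well, from 22.5 ± 1.004 to 16.4 ± 2.37 FPKM (SD, n = 4 each; limma, adjusted p = 0.00458), while ATP5MC1 passed, as lower, only without gemcitabine replicate 1 (-0.28 on the log2 scale; limma, adjusted p = 6.33e-06, against 0.269 with all libraries). ATP5F1B, the catalytic beta subunit of complex V, rose from 464 ± 21.3 to 579 ± 23 FPKM in BxPC3 and fell from 363 ± 1.92 to 294 ± 13.6 FPKM in PANC-1 (SD, n = 4 each; limma, adjusted p = 0.000245 and 0.000958). NDUFA10 of complex I fell in both lines, by 0.22 and 0.35 on the log2 scale (limma, adjusted p = 0.000861 and 0.00112). NDUFB5 of complex I fell by 0.47 in BxPC3 (limma, adjusted p = 0.000183) and did not pass in PANC-1 (adjusted p = 0.181). COX7A2 of complex IV rose in both, by 0.29 and 0.30 on the log2 scale (limma, adjusted p = 0.00834 and 0.00183).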

How the data were processed

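Poly-A RNA sequencing of 16 libraries was analysed. The authors deposited FPKM values with a gene length for each gene, in 1 table per cell line, per the labels and the file headers. The tools listed per the submitters' processing notes are CASAVA and HISAT2, with no version. Those notes give mm10, a mouse build, whereas all 58735 gene identifiers are human and all 58735 genes have the start and end of GENCODE 29 on GRCh38. No counter or strand setting is named. Reads were recovered as FPKM times length over the value of 1 read. Of these, 100% came out whole within 0.02 reads, so depth is known (22152034 to 37777222 reads in listed genes).

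Values were compared as log2(FPKM + 1) with limma 3.58.1 (trend, robust) in R 4.3.3, for genes that reached 1 FPKM in 4 or more libraries of the fit, with p-values adjusted after Benjamini and Hochberg. The difference between the lines was an interaction over all 16 libraries, as a difference of differences within separately normalized tables. The procedure was tested on simulated data. Shares and pool percentages were compared with 2-sided exact permutation tests in scipy 1.17.1. All mRNA and rRNA genes were named, with tRNA genes that were called or had the most reads. Other genes were named where they were among 11 set names of the expression machinery, the 4 (expression lists) or 2 (oxidative phosphorylation) of smallest p in each direction and line, or the 3 pseudogenes with the most reads. MT-TV, MT-TS1, MT-TW, MT-TG and MT-TL2 were singled out after their values were seen. The members and lists were chosen with earlier results of these data known.

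Alternatives were a pseudocount of 0.1, no filter, TPM, scaling to nuclear reads, median-ratio scaling, limma without trend and robust, limma-voom on recovered reads, a replicate block, a fold threshold, other denominators, and leaving out each library. Counts of reads carry counting error only.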

Additional observations from a re-analysis of the deposited data

Results flagged for a closer look

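In 4-library groups, a library was singled out when its gap to the nearest other library, divided by the range of the group, exceeded Dixon's 95% critical value. Of 108 groups checked, 13 held such a library, and chance gives about 1 in 20. PANC-1 gemcitabine replicate 1 accounted for 6 of them. It measured 774.5 FPKM in MT-ND1 (929 to 953 in the other 3 libraries), 1055 in MT-ND2 (1334 to 1345), 1193 in MT-ATP6 (1444 to 1473), 297 in MT-ND5 (345 to 353) and 601 in MT-RNR2 (866 to 917). Its tRNA share of reads was 0.00581%, against 0.00819 to 0.00855%.

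BxPC3 control replicate 2 was high in MT-CO1 (4809.9 FPKM, against 4633 to 4660.1), MT-ATP6 (3688, against 3512 to 3537) and the sparse MT-TD (3.39, against 0), and low in MT-ND5 (571, against 681 to 700.03). BxPC3 gemcitabine replicate 1 was high in MT-ATP8 (102 FPKM, against 54.0 to 60.9) and at 0 in MT-TM (0.418 to 0.483 in the others). BxPC3 control replicate 3 had 0.451 FPKM in MT-TM, against 0. These MT-TM and MT-TD values rest on a few reads.

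By the limma interaction test over 16 libraries, the change with gemcitabine differed between the lines for 4 genes tested in both lines. As PANC-1 minus BxPC3 on the log2 scale, the difference was 0.64 in MT-CYB (adjusted p = 7.96e-07), 0.67 in MT-RNR1 (adjusted p = 0.00241), 0.45 in MT-TC (adjusted p = 0.00986) and -1.51 in MT-TL1 (adjusted p = 9.96e-05). Another 3 genes passed that test but entered the fit through PANC-1 alone, with few or no reads in BxPC3, so that no difference in response is read from them. Their values were -1.35 in MT-TM (limma, adjusted p = 2.74e-05), -1.36 in MT-TV (adjusted p = 0.0264) and -0.60 in MT-TS1 (adjusted p = 0.0411).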

How the results depend on the processing

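Requiring an absolute log2 change of at least 1 left 4 mitochondrial genes called in BxPC3, 2 in PANC-1 and 3 for the difference between the lines, and 0 genes of the expression lists and 0 of oxidative phosphorylation in each line. On TPM values, 50 nuclear genes of oxidative phosphorylation were called in BxPC3, against 32, of which 30 were shared. The share of all genes called on TPM values is not given here. MT-CO3 in BxPC3 had a log2 change of 0.076 on TPM values (limma, adjusted p = 0.0186) against -0.01. The BxPC3 log2 change of every other mRNA was also higher on TPM values than on FPKM, for example 0.06 against -0.03 in MT-ND1 and -0.46 against -0.54 in MT-ND2. Scaling to TPM multiplies all genes of a library by a common factor, and both rRNAs were higher on TPM values in BxPC3 too. No change particular to the mRNAs is therefore read from this shift. Why the factor differed between the groups was not tested. Leaving out each library in turn gave 13 to 15 mitochondrial genes in BxPC3, 15 to 23 in PANC-1 and 5 to 16 for the difference. It gave 67 to 74 and 28 to 64 genes of the expression lists, and 30 to 45 and 13 to 39 of oxidative phosphorylation. Each highest PANC-1 or difference count was without PANC-1 gemcitabine replicate 1. In that run 69.8% of all genes tested were called in PANC-1, against 44.8% with all libraries, and 65% for the difference, against 51.8%. For the fold threshold, the block and the other runs the share of all genes is not given here. No result particular to the listed genes is read from those counts. The log2 change in rRNA share stayed between -0.91 and -0.88 in BxPC3 and between -1.01 and -0.78 in PANC-1. For the pool composition such runs allow no exact p under the threshold, and the groups of 8 genes were free of overlap in every run in BxPC3 and of 9 to 12 in PANC-1. With the replicate number as a block, 15 mitochondrial genes were called in BxPC3, 17 in PANC-1 and 7 for the difference, while MT-ATP6 in BxPC3 (limma, adjusted p = 0.105) and MT-ND5 in PANC-1 (adjusted p = 0.11) were not; same-numbered libraries correlated from -0.376 to 0.189 and share only a number, and shares compared over 4 pairs cannot reach an exact p below 0.125. Among single genes, 551 comparisons under the other settings kept direction and side of the threshold, and 12 called in neither setting changed sign. Another 33 lost the call, most of them under the fold threshold, which removes any absolute change below 1. A further 6 gained the call. The remaining 1, MT-CO3 in BxPC3, was not called on FPKM and was called on TPM values with the other sign. Depth limits the sparse tRNA genes, where a few reads set the FPKM. Gemcitabine replicate 1 of PANC-1 differs along GC content, and the part of this in the results was not tested. Strand and read assignment limit MT-ND6, the minus-strand tRNA genes and the overlapping pairs.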
